A study of Mus musculus with 12 samples.

Results

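The FGF receptors and their adaptor genes are 9 genes of the 18269 in the deposited table: the receptor kinases Fgfr1, Fgfr2, Fgfr3 and Fgfr4, the receptor-like Fgfrl1, the docking proteins Frs2 and Frs3, and the membrane modulators Flrt3 and Il17rd. They were taken by symbol, through the Ensembl gene ID of each row, and each symbol matched 1 row. RNA was measured in mouse embryoid bodies of strain C57BL/6, in which embryonic stem cells differentiate as aggregates. The 4 groups were Gcn5-/- line 4C2 at day 5, Gcn5 fx/fx line 4_1 at day 5, and the same null and floxed lines at day 3, with 3 samples each by the labels (the series text speaks of duplicates). Gcn5, encoded by Kat2a, is a histone acetyltransferase, and in the floxed line the gene carries recombination sites around the part to be removed. Each genotype is 1 line, so line and genotype cannot be told apart. Nothing says that the 3 samples of a group came from separate cultures, and p-values measure only the spread between them, which may be technical.

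The label check, Kat2a, stood at 739 to 860 normalised reads in null and 2071 to 2391 in floxed day 5 libraries, and at 614 to 840 in null and 2077 to 2380 in floxed day 3 libraries. A normalised read is a read count divided by the size factor of its library. Libraries held 18022071 to 26803369 reads over the listed genes in null and 23090915 to 29446068 in floxed samples. Markers of pluripotent cells, neural ectoderm and extraembryonic endoderm were detected in all 4 groups, and none of the listed markers in the table was at 0 in all libraries of a group. In RNA from whole embryoid bodies, fewer cells of a type and less RNA per cell cannot be told apart. None of the 9 genes lies on chromosome 11, the chromosome of Kat2a. The median log2 difference between null and floxed over its 1332 tested genes was 0.33 at day 5 and 0.36 at day 3, against -0.04 and -0.02 over the other 15668.

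FGF ligands bind receptor tyrosine kinases together with heparan sulfate chains, and the paired receptors phosphorylate the docking protein Frs2, which recruits Grb2 and switches on Ras and the ERK kinases. In embryonic stem cells this pathway moves cells out of naive pluripotency, and in the early embryo it acts in primitive endoderm, mesoderm and neural patterning. Il17rd encodes Sef, a membrane antagonist of FGF to ERK signalling, and Flrt3 encodes a leucine-rich membrane protein that binds FGF receptors and promotes ERK signalling in Xenopus.

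Promoter sequences are printed for the 4 genes with called differences that have an entry in the RefSeq promoter table (GRCm38.p6, 250 bases before to 50 after the start), because Flrt3, Fgfr2 and Fgfr3 changed with day in both lines and Il17rd and Flrt3 differed between genotypes at day 5. Of the 9 genes, 8 matched the table, with 9 windows in all; Fgfr1 is named only. Capitals mark matches, on either strand, to the E-box CACGTG, to the ETS motif CCGGAAGT, or to the GC box GGGCGG, whose reverse complement is CCGCCC. Sequences run 5′ to 3′ on the strand of the gene.
Il17rd, chr14:27038751-27039050, plus strand: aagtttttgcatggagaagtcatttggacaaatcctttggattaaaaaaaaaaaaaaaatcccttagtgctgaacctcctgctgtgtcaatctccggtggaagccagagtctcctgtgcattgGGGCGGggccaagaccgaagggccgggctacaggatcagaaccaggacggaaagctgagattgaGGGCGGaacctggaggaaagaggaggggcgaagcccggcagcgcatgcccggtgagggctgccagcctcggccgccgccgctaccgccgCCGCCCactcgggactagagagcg
Flrt3, chr2:140671427-140671726, minus strand: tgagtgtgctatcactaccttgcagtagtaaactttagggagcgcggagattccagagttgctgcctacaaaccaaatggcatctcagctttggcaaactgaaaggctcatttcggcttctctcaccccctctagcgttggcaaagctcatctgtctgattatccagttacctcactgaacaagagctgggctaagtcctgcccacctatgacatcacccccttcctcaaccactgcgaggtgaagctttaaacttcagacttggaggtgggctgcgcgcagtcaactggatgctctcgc
Fgfr2, chr7:130266759-130267058, minus strand: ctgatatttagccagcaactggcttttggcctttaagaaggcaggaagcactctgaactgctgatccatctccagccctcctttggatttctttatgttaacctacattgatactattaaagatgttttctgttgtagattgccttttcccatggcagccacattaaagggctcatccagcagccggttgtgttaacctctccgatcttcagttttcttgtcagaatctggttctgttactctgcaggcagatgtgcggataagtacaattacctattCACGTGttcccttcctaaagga
Fgfr3, chr5:33721474-33721773, plus strand: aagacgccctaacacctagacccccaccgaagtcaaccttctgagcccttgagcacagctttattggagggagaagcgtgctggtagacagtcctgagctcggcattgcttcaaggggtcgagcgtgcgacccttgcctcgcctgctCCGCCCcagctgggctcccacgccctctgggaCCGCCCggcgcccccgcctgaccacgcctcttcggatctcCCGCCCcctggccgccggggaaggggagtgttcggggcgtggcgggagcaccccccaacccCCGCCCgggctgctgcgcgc
Fgfr3, second start, chr5:33722056-33722355, plus strand: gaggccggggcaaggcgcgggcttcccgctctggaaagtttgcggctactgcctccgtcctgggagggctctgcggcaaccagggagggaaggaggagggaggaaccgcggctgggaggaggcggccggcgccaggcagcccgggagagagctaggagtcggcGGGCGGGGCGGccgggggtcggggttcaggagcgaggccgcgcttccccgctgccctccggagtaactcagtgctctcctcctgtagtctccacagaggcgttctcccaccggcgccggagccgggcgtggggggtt

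The Il17rd window held 3 GC boxes and no E-box or ETS match, and the Flrt3 window held none of the 3 motifs. Fgfr2 held 1 E-box and had the lowest GC content of the 9 windows, at 43.7%, against 51.3% in Flrt3, 58.3% in Il17rd, 69.7% and 73.0% in the windows of Fgfr3 and a median of 52.7% over all promoters in the table. The 2 windows of Fgfr3 held 4 and 2 GC boxes. Among the windows not printed, Fgfrl1 held an E-box, an ETS match and 4 GC boxes, Frs2 an ETS match and 2 GC boxes, Fgfr4 4 GC boxes and Frs3 5 GC boxes. Over the 32851 promoters of the table, 7.15% held an E-box, 3.89% the ETS motif and 35.7% a GC box. A match is a string of letters in this window and shows neither binding nor its absence.

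Levels can be compared between genes only per length, here as normalised reads per kilobase of the union of annotated exons (GENCODE M21). Il17rd and Fgfr1 stood at the top of the 9 genes in 3 of the 4 groups, and Fgfr4 was the lowest in all 4. At day 5, Il17rd averaged 176 ± 44.6 reads per kilobase in null and 416 ± 119 in floxed samples, and Fgfr1 199 ± 13.7 in null and 273 ± 7.44 in floxed samples (SD, n = 3). At day 3, Il17rd averaged 227 ± 34.4 in null and 411 ± 167 in floxed samples, and Fgfr1 186 ± 39.6 in null and 265 ± 60.2 in floxed samples. Fgfr4 lay between 8.27 and 9.22 reads per kilobase as a mean in every group.

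The order in null samples at day 5 was Fgfr1, Fgfrl1, Il17rd, Flrt3, Fgfr2, Frs2, Frs3, Fgfr3 and Fgfr4, with gaps only below Frs2 and Fgfr3. A gap here means only that every library of a gene lay above every library of the next, whatever the distance. In floxed samples at day 5 it was Il17rd, Fgfr1, Flrt3, Fgfrl1, Fgfr2, Frs2, Fgfr3, Frs3 and Fgfr4, with such gaps below Il17rd, Flrt3, Frs2 and Frs3. In null samples at day 3 it was Il17rd, Fgfr1, Fgfrl1, Frs2, Fgfr2, Frs3, Flrt3, Fgfr3 and Fgfr4, with gaps below Frs2, Fgfr2 and Flrt3. In floxed samples at day 3 it was Il17rd, Fgfr1, Fgfrl1, Frs2, Fgfr2, Flrt3, Frs3, Fgfr3 and Fgfr4, with gaps below Fgfr1, Frs2 and Frs3. All other neighbours overlapped in at least 1 library. Per kilobase of the longest transcript, Fgfr2 moved up to rank 2 in null and rank 3 in floxed samples at day 5 and to rank 3 in both at day 3, and Fgfr1 stood above Il17rd in null samples at day 3.

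Fgfr1 had the highest mean of the 4 receptor kinases per length in each group, and its share of the summed level of Fgfr1 to Fgfr4 was smaller at day 5 than at day 3 in both lines. It took 55.1%, 44.7% and 48.9% of the sum in null, where Fgfr2 was close to it in replicate 2 (43.7%), and 62.8%, 54.6% and 46.2% in floxed day 5 libraries. At day 3 it took 70.1%, 60.0% and 61.2% in null and 74.1%, 67.6% and 74.1% in floxed libraries. The days did not overlap in either line, while null and floxed libraries overlapped on each day. The Fgfr2 share averaged 37.6% ± 5.29 in null and 31.8% ± 3.23 in floxed samples at day 5, and 28.7% ± 6.05 in null and 21.5% ± 4.59 in floxed samples at day 3 (SD, n = 3), and its days did not overlap in either line. Fgfr3 averaged 10.5% ± 3.04 in null and 11.9% ± 4.39 in floxed samples at day 5, against 4.66% ± 0.37 in null and 3.98% ± 1.04 in floxed samples at day 3. Fgfr4 never passed 3.45% of the sum. The shares rest on exon lengths, and no test was run on them; with the longest transcript in place of the exon union, Fgfr1 took 47.4% in null and 52.6% in floxed samples at day 5, and 61.7% in null and 70.3% in floxed samples at day 3. By that length Fgfr2 averaged 42.7% in null samples at day 5 and stood above Fgfr1 in null replicate 2 (48.9% and 42.1%). The values are per gene, so the splice forms of the receptors that bind different ligands were not told apart.

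**Figure D1:**
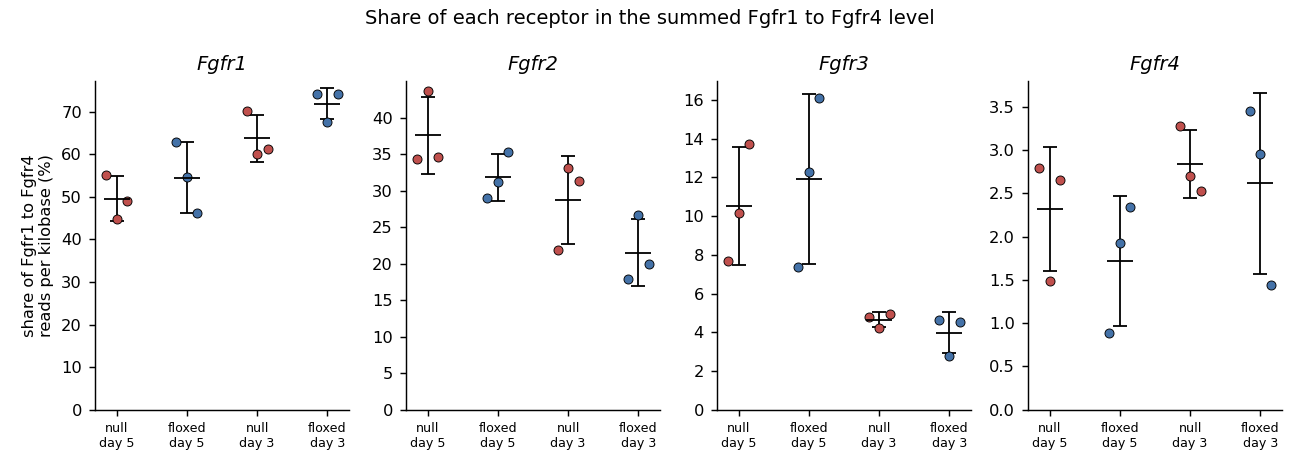
Share of each receptor kinase in the summed Fgfr1 to Fgfr4 level per kilobase of exon, in percent, by genotype and day; points are libraries, horizontal marks means and bars SD (n = 3). The Fgfr1 points at day 5 (44.7% to 62.8%) lie below those at day 3 (60.0% to 74.1%) within each line, and the Fgfr2 and Fgfr3 points lie higher at day 5.

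At day 5, 3 of the 9 genes were lower in null than in floxed embryoid bodies (Il17rd, Flrt3 and Fgfr1) and none was higher, by limma on log2 values with Benjamini-Hochberg adjustment over all 17000 genes tested. Of all genes tested, 26.5% were called in that comparison, with 13.5% lower and 13.0% higher in null. In both directions together, the share of the 9 genes called is close to the background. Taken by direction, 3 of 9 lower is a larger share than 13.5%, which rests on 3 genes and was not tested. At day 5 edgeR called 2 of the 9 genes and DESeq2 called 3. The median log2 change of the 9 genes was -0.10, against -0.02 over all genes tested. Day 3 gave no call among the 9 genes by limma or by edgeR and 1, Fgfr1, by DESeq2. Over all genes limma called 6.12% at day 3 (2.03% lower and 4.09% higher in null). By limma 2 of the 9, Fgfr1 and Il17rd, had an unadjusted p under 0.05. With the replicate number as a block, limma called these 2 at day 3 (adjusted p = 0.0297 and 0.0101), and 1866 of all 17000 genes. The block takes up the pairing of same-numbered libraries, which the main fit leaves out.

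**Figure D2:**
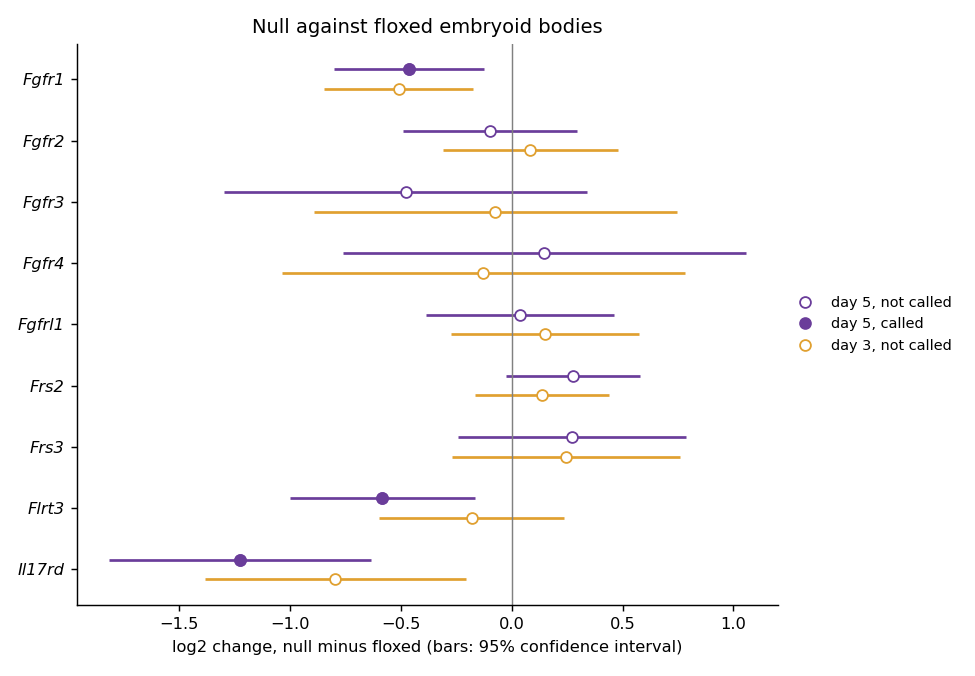
Log2 change of the 9 genes, null minus floxed, at day 5 and day 3, with 95% confidence intervals from limma; filled points are called at an adjusted p under 0.05. Il17rd (-1.22), Flrt3 (-0.58) and Fgfr1 (-0.46) are filled at day 5, and no point is filled at day 3.

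Il17rd (ENSMUSG00000040717.5, chr14:27038941-27107286), the antagonist Sef, had the widest genotype difference. It stood at 2441, 1463 and 1908 normalised reads in null and 5571, 3096 and 5036 in floxed day 5 libraries. At day 3 it stood at 2666, 2064 and 2760.1 in null and 3788, 3162 and 6606 in floxed libraries. Every null library lay below every floxed library on each day, and the highest value of the 12 was floxed replicate 3 at day 3. The log2 change at day 5 was -1.22 ± 0.27 (SE; limma adjusted p = 0.00651, 95% confidence interval -1.81 to -0.63), a fold of 0.428. The pairs of libraries with the same replicate number differed by -1.19, -1.08 and -1.40. At day 3 the log2 change was -0.79 ± 0.27 (adjusted p = 0.106), and with the replicate number as a block the same difference passed the test (adjusted p = 0.0101). Without floxed replicate 3 the day 3 change was -0.48 (adjusted p = 0.282).

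Flrt3 (ENSMUSG00000051379.12, chr2:140650914-140671469), which binds FGF receptors, was at 876, 855 and 744 normalised reads in null and 1353, 1177 and 1174 in floxed day 5 libraries, with no overlap. At day 3 the values were 196, 248 and 259 in null and 215, 219.8 and 386 in floxed libraries, which overlapped. The day 5 log2 change was -0.58 ± 0.19 (limma adjusted p = 0.0404), and that of day 3 was -0.18 ± 0.19 (adjusted p = 0.634). The call at day 5 was lost without any 1 of the 6 day 5 libraries (adjusted p = 0.0649 to 0.124) and, narrowly, without null day 3 replicate 2 (0.0504), while over these fits the change stayed between -0.63 and -0.51. It was also lost with upper-quartile scaling (0.0557), with scaling without chromosome 11 (0.0504) and with a 1.5-fold minimum.

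Among the receptor kinases, Fgfr1 (ENSMUSG00000031565.17, chr8:25513654-25575718), a receptor kinase of the epiblast and mesoderm, was at 2111, 1849 and 1924 normalised reads in null and 2683, 2781 and 2637 in floxed day 5 libraries, with no overlap. At day 3 it was at 2258, 1490.0 and 1749 in null and 2553, 2053 and 3238 in floxed libraries, where null replicate 1 lay above floxed replicate 2. The log2 change was -0.46 ± 0.16 at day 5 (limma adjusted p = 0.0439) and -0.51 ± 0.16 at day 3 (adjusted p = 0.0749; 0.0297 with the replicate block). The day 5 call was lost without any 1 of the 6 day 5 libraries (adjusted p = 0.0597 to 0.121), and without null day 3 replicate 3 (0.0537) or floxed day 3 replicate 1 (0.0581). It was also lost with TMM scaling (0.0547), upper-quartile scaling (0.0653), scaling without chromosome 11 (0.0554), edgeR (0.0564) or a 1.5-fold minimum. At day 3 the difference passed without null replicate 1 or floxed replicate 2, and with DESeq2 (adjusted p = 0.0253).

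Fgfr2 (ENSMUSG00000030849.17), a receptor with epithelial and mesenchymal splice forms, had 1376, 1889 and 1424 normalised reads in null and 1292, 1663 and 2106 in floxed day 5 libraries. Its day 3 libraries had 734, 858 and 937 in null and 643, 845 and 911 in floxed samples. Null and floxed overlapped on each day, and the log2 change was -0.10 ± 0.18 at day 5 (95% confidence interval -0.49 to 0.30) and 0.08 ± 0.18 at day 3 (-0.31 to 0.48). GENCODE M21 gives Fgfr2 the span chr7:130162451-133123350, which takes in long transcripts, and 3.04% of its exon bases are shared with Ctbp2, while RefSeq ends it at 130266808.

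Fgfr3 (ENSMUSG00000054252.17, chr5:33721674-33737068), a receptor of neural and skeletal progenitors, had 214, 304 and 391 normalised reads in null and 228, 453 and 666 in floxed day 5 libraries, and 111, 76.3 and 103 in null and 115, 61.1 and 144 in floxed day 3 libraries. The groups overlapped, with log2 changes of -0.48 ± 0.38 at day 5 and -0.07 ± 0.38 at day 3. The day 5 confidence interval reached from -1.30 to 0.34, and without floxed replicate 1 the change was -0.90 (adjusted p = 0.0893). An antisense gene, G630022F23Rik, covers 13.9% of its exon bases, and whether counting used the strand is not given in the sources used here.

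Fgfr4 (ENSMUSG00000005320.9, chr13:55152640-55168759), the receptor of endoderm and liver, was near the lower limit of measurement, with 17 to 55 reads in a library. It stood at 38.4, 22.1 and 37.4 normalised reads in null and 13.5, 35.2 and 48.0 in floxed day 5 libraries, and at 37.9, 24.1 and 25.9 in null and 42.6, 32.2 and 22.7 in floxed day 3 libraries. The libraries of a group varied by 25.5% to 54.1% of the mean, where counting alone gives 16.2% to 19.6%. The confidence intervals, -0.76 to 1.06 at day 5 and -1.03 to 0.78 at day 3, were the widest of the 9 genes, so changes within them were not detectable in these samples.

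Fgfrl1 (ENSMUSG00000008090.14, chr5:108692382-108706924) binds FGF but lacks the kinase domain. It stood at 425, 489 and 591 normalised reads in null and 473, 423 and 567 in floxed day 5 libraries, and at 387, 313 and 478 in null and 308, 299 and 459.8 in floxed day 3 libraries. The genotypes overlapped on each day. The log2 change was 0.04 ± 0.20 at day 5 (95% confidence interval -0.39 to 0.46) and 0.15 ± 0.20 at day 3 (-0.27 to 0.58).

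The docking proteins were not called in either genotype comparison. Frs2 (ENSMUSG00000020170.3, chr10:117069427-117148534), the main substrate through which the receptors reach Grb2, had 1646, 1165 and 1092 normalised reads in null and 1101, 1177 and 911 in floxed day 5 libraries, and 1109.6, 1003 and 954 in null and 881, 959 and 945 in floxed day 3 libraries. Null replicate 1 at day 5 stood above the rest, and the groups overlapped on each day. The log2 change was 0.27 ± 0.14 at day 5 (95% confidence interval -0.03 to 0.58), and 0.14 ± 0.14 at day 3. Without null replicate 1 the day 5 change was 0.09. Frs3 (ENSMUSG00000023266.11, chr17:47689030-47704286), a related docking protein, had 115, 147 and 206 normalised reads in null and 96.3, 126 and 162 in floxed day 5 libraries. At day 3 it had 197, 149.9 and 203 in null and 165, 129 and 169.6 in floxed libraries. These groups overlapped, but within each pair of libraries of the same number null was higher, by 0.26, 0.22 and 0.34 at day 5 and by 0.26, 0.22 and 0.26 at day 3 on the log2 scale, neither of which passed the test (adjusted p = 0.430 and 0.591). The antisense gene Frs3os covers 16.3% of the exon bases of Frs3.

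**Figure D3:**
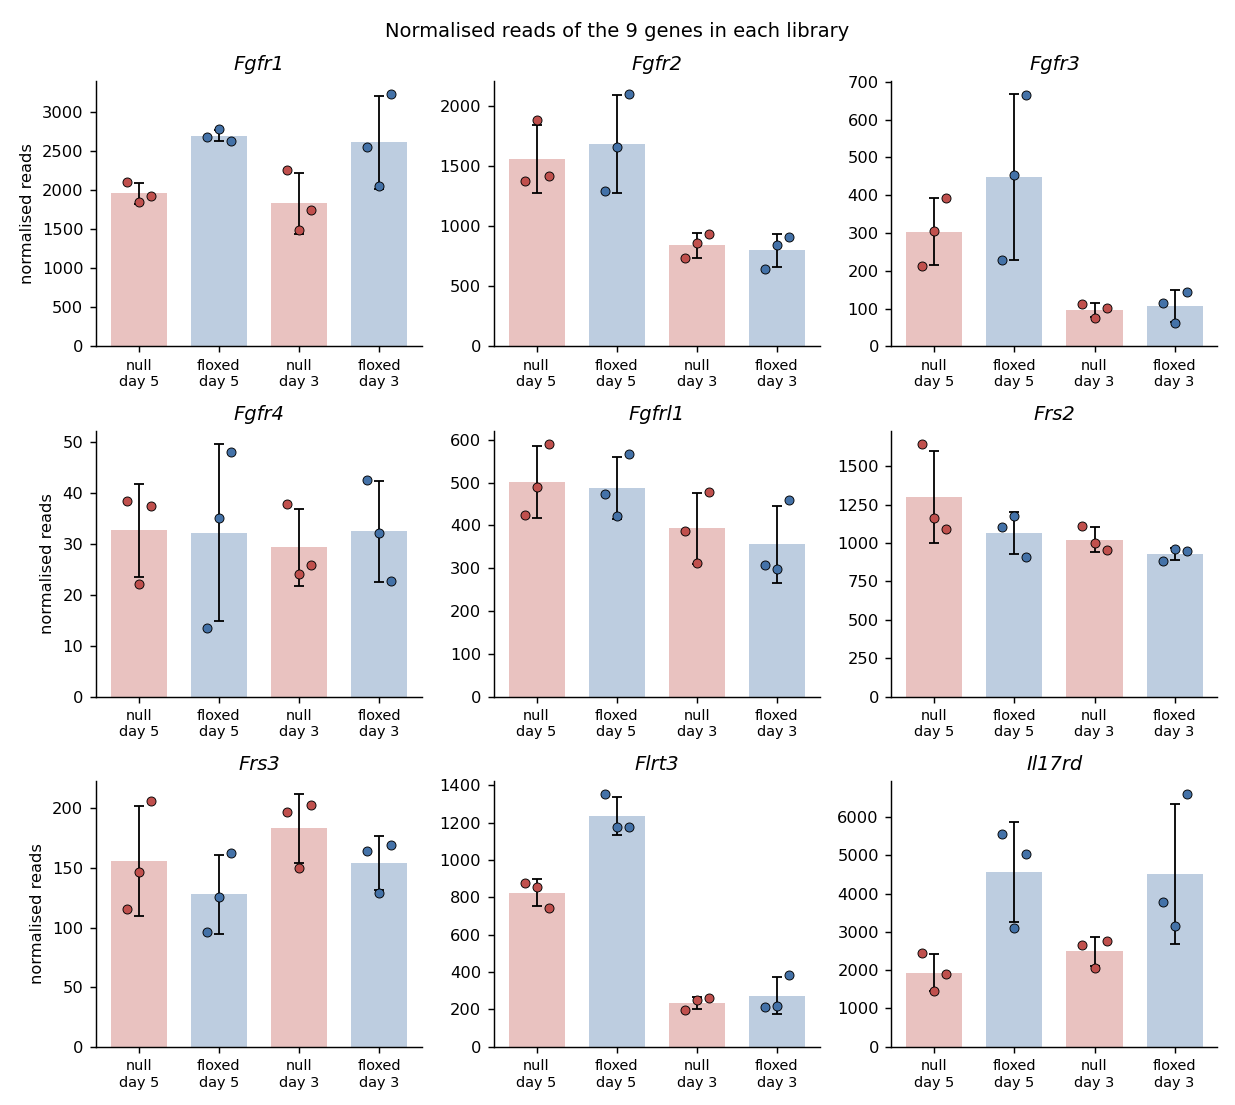
Normalised reads of the 9 genes in each library (points, in replicate order), with group means (bars) and SD (error bars, n = 3), each panel on its own scale from 0. Il17rd is lower in every null library than in every floxed library of the same day, and Flrt3, Fgfr2 and Fgfr3 are higher at day 5 in both lines.

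Summed levels of neural and pluripotency markers did not overlap between the genotypes at day 5. The 7 neural ectoderm markers summed to 5331 to 7230 normalised reads in null and 8492 to 15262 in floxed libraries. The 7 pluripotency markers summed to 4883 to 7621 in null and 9025 to 12475 in floxed libraries. Of these pluripotency markers, all but Zfp42 (377 in null and 369 in floxed) had lower means in null, such as Pou5f1 (1820 in null and 3780 in floxed). The 6 of 7 primitive streak and mesoderm markers in the table summed to 282 to 390 in null and 382 to 605 in floxed libraries, and the 13 extraembryonic endoderm markers to 11677 to 21336 in null and 9412 to 27497 in floxed libraries, with overlap in both of these sums. In the streak and mesoderm sum, T (26.8 in null and 155 in floxed), Eomes and Gsc had lower means in null. Kdr (204 in null and 188 in floxed), Mixl1 and Tbx6 had higher ones. The endoderm sum was mostly Col4a1 (9803 in null and 9796 in floxed). Of its other markers, all but Sox7 had lower means in null, such as Foxa2 (85.0 in null and 229 in floxed). The part of these cell types in the Il17rd, Flrt3 and Fgfr1 differences was not tested. At day 3 the neural sums overlapped (3739 to 4929 in null and 4245 to 5315 in floxed libraries), as did the pluripotency sums (13462 to 19541 in null and 17311 to 23721 in floxed libraries). The day 3 neural sum was mostly Nes, which averaged 3132 in null and 2334 in floxed samples, while the other 6 neural markers had lower means in null, such as Sox1 (836 in null and 1807 in floxed), Pax6 (212 in null and 465 in floxed) and Zic1 (3.71 in null and 19.6 in floxed).

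Between day 3 and day 5, Flrt3, Fgfr2 and Fgfr3 rose in each line and none of the 9 genes fell. In null embryoid bodies 44.5% of all genes tested were called between the days, with 22.6% higher and 21.9% lower at day 5. In floxed ones 41.7% were called, with 22.5% higher and 19.2% lower. In both directions together, the count of 3 of 9 stands close to that background. Taken by direction, 3 rises of 9 is a larger share than 22.6% or 22.5%, which rests on 3 genes and was not tested. The 9 genes had a median log2 change of 0.33 in null and 0.19 in floxed samples, against 0.00 over all genes tested in each line. These 3 rises were called in every alternative run and without any 1 of the 12 libraries.

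The largest estimate was that of Flrt3, at 744 to 876 normalised reads in null samples at day 5, against 196 to 259 at day 3, a log2 change of 1.82 ± 0.19 (limma adjusted p = 1.64e-05). In floxed samples it was at 1174 to 1353 at day 5, against 215 to 386 at day 3, by 2.22 ± 0.19 (adjusted p = 3.7e-06). The days did not overlap in either line. Fgfr3 rose by 1.61 ± 0.38 in null (adjusted p = 0.00399) and by 2.02 ± 0.38 in floxed samples (adjusted p = 0.000981), a fold of 3.06 and 4.04. Replicate 1 rose least in each line, by 0.94 in null and 0.98 in floxed, against 1.92 to 2.87 in the other libraries paired by number. Fgfr2 rose by 0.88 ± 0.18 in null (adjusted p = 0.00175) and by 1.06 ± 0.18 in floxed samples (adjusted p = 0.000505), and its days did not overlap in either line.

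The other 6 genes were not called between the days. The kinase-free Fgfrl1 had a log2 change of 0.36 ± 0.20 in null and 0.47 ± 0.20 in floxed samples, and Frs2 0.33 ± 0.14 in null and 0.19 ± 0.14 in floxed samples. In null samples, where same-numbered libraries deviate together, the replicate block brought the Fgfrl1 (adjusted p = 0.0159) and Frs2 (adjusted p = 0.0384) differences past the test, 5 genes in place of 3. The Fgfr1 estimate was 0.12 ± 0.16 in null and 0.07 ± 0.16 in floxed samples, so its smaller share at day 5 went with higher levels of Fgfr2 and Fgfr3. Il17rd had -0.39 ± 0.27 in null and 0.04 ± 0.27 in floxed samples, Frs3 -0.26 ± 0.24 in null and -0.29 ± 0.24 in floxed samples, and Fgfr4 0.14 ± 0.42 in null and -0.14 ± 0.42 in floxed samples.

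**Figure D4:**
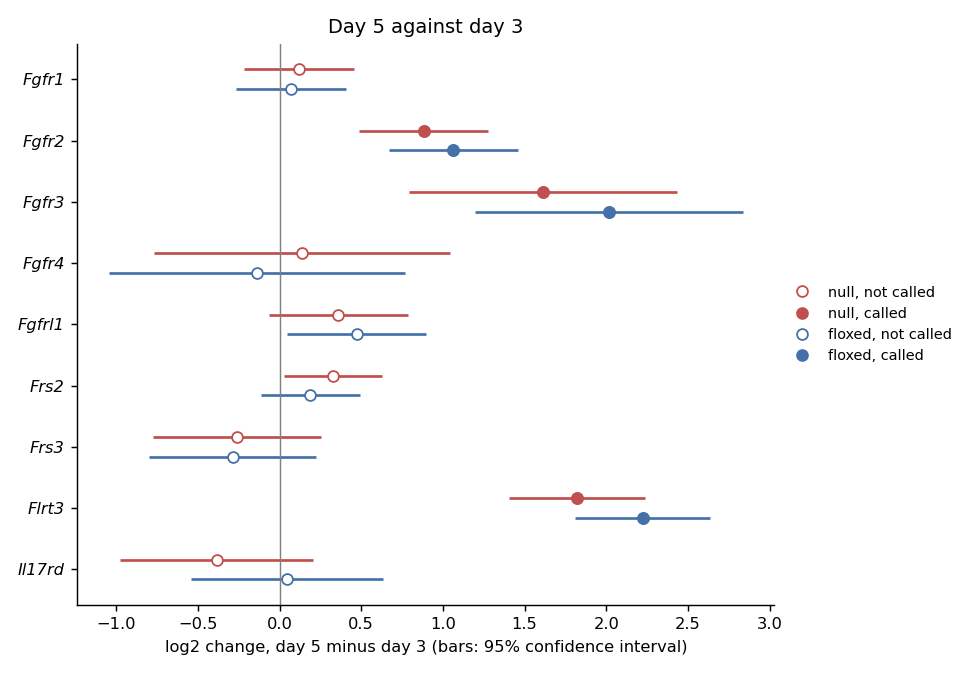
Log2 change of the 9 genes, day 5 minus day 3, in null and floxed embryoid bodies, with 95% confidence intervals from limma; filled points are called at an adjusted p under 0.05. Fgfr2, Fgfr3 and Flrt3 are filled and to the right of 0 in each line.

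Marker sums also moved between the days. Extraembryonic endoderm markers summed to 11677 to 21336 normalised reads at day 5 and 3864 to 4361 at day 3 in null libraries, and to 9412 to 27497 at day 5 and 2511 to 5747 at day 3 in floxed libraries. Fibroblast markers, 7 of 8 in the table, summed to 1151 to 2918 at day 5 and 224 to 301 at day 3 in null, and to 1022 to 2805 at day 5 and 279 to 299 at day 3 in floxed libraries. Most of that sum at day 5 was the collagen gene Col1a2, which averaged 1647 at day 5 and 63.7 at day 3 in null and 1617 at day 5 and 86.2 at day 3 in floxed samples. The fibroblast markers Thy1 (24.2 at day 5 and 91.2 at day 3 in null, 29.7 at day 5 and 114 at day 3 in floxed) and Twist2 (3.77 at day 5 and 6.72 at day 3 in null, 2.27 at day 5 and 7.01 at day 3 in floxed) had lower means at day 5. Pluripotency markers summed to less at day 5 than at day 3 in each line, and neural markers to more. The pluripotency fall was mostly Pou5f1, from a mean of 9501 to 1820 in null and from 11893 to 3780 in floxed samples. Otx2 and Fgf5 had higher means at day 5 in each line. Otx2 went from 141 to 294 in null and from 290 to 624 in floxed samples. Sox2 (2292 to 3369) and Esrrb (648 to 1189) had higher means at day 5 in floxed samples only. Among the neural markers, En2 had a lower mean at day 5 in null samples. The part of these cell types in the rises of Flrt3, Fgfr2 and Fgfr3 was not tested.

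The genotype by day interaction asks whether the change between days differs between the lines. It called 0 of the 9 genes by limma, edgeR and DESeq2, none had an unadjusted p under 0.05, and 0.476% of all genes were called (0.247% positive and 0.229% negative). Estimates ran from -0.43 ± 0.39 for Il17rd to 0.28 ± 0.59 for Fgfr4. For Flrt3 the estimate was -0.40 ± 0.27 (95% confidence interval -0.99 to 0.19). The 3 genes that limma without the replicate block called at day 5 only were thus not shown to differ between the days in their genotype effect.

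The rest of the pathway was read from 7 lists, whose day 5 counts stand against 26.5% of all genes called (13.0% higher and 13.5% lower in null). Of 11 ERK-induced feedback and Etv genes, 10 were lower in null and none higher, with a median log2 change of -1.29. The ERK inhibitor Spry2 averaged 1089.8 normalised reads in null and 2669 in floxed samples (-1.29 ± 0.13), Spry1 417 in null and 888 in floxed samples (-1.09 ± 0.13), and the related Spred3 139.6 in null and 449 in floxed samples (-1.69 ± 0.26). Of 12 FGF ligand genes measured, 11 were tested, and 6 were lower and none higher, with a median of -1.38. Fgf15 averaged 181 in null and 1206 in floxed samples (-2.70 ± 0.38), Fgf3 51.7 in null and 147 in floxed samples (-1.50 ± 0.31), and Fgf17 41.1 in null and 112 in floxed samples (-1.38 ± 0.29). No measured gene ID matched Fgf6, Fgf7, Fgf16, Fgf20, Fgf21 or Fgf23, so these were not analysed.

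Of 12 genes of receptor trafficking and inhibition, 6 were lower in null at day 5 and none higher (median -0.73), the Sprouty and Spred genes standing in this list as well. The adaptor Grb10, which binds insulin and other growth factor receptors, averaged 216 in null and 22128 in floxed samples (-6.66 ± 0.17), and it lies on chromosome 11. Of 15 co-receptors and receptor partners, 3 were higher and 5 lower (median -0.24). The glypican Gpc1 averaged 1676 in null and 2969 in floxed samples (-0.82 ± 0.09), the syndecan Sdc3 136 in null and 414 in floxed samples (-1.59 ± 0.25), and Sdc2, also a syndecan, 1064 in null and 722 in floxed samples (0.56 ± 0.09).

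The heparan sulfate genes, the signal relay and the other receptor kinases had shares of calls near or below that background. Of 14 heparan sulfate genes, 1 was higher and 2 lower (median -0.10). The chain polymerase gene Ext1 averaged 1465 in null and 2394 in floxed samples (-0.70 ± 0.10), Extl3 changed by -0.26 ± 0.08 and the core protein perlecan, Hspg2, by 0.56 ± 0.19. The Extl3 call was lost without any 1 of the 6 day 5 libraries (adjusted p = 0.0614 to 0.103), with TMM (0.0515) or upper-quartile scaling (0.0676), with scaling without chromosome 11 (0.0567) and with edgeR (0.0504). The call of Hspg2 was lost without replicate 1 or 3 of either line at day 5 (0.0675 to 0.181), null day 3 replicate 3 (0.0577) or floxed day 3 replicate 2 (0.0586), and with the day 5 samples fitted alone (0.0642). The Extl3 and Hspg2 calls were also lost with a 1.5-fold minimum. In the signal relay from Grb2 to ERK, 2 of 20 genes were higher and 4 lower (median 0.08). These changes were small, with Hras, a Ras GTPase, at -0.46 ± 0.08, the ERK-activating kinase Map2k1 at 0.32 ± 0.06, and Grb2, on chromosome 11, at 0.39 ± 0.08. Of 17 other receptor tyrosine kinases, 1 was higher and 1 lower (median 0.01). The ephrin receptor Epha2 averaged 453 in null and 1323 in floxed samples (-1.51 ± 0.28), and Erbb2, on chromosome 11, 1945 in null and 1271 in floxed samples (0.62 ± 0.15).

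**Figure D5:**
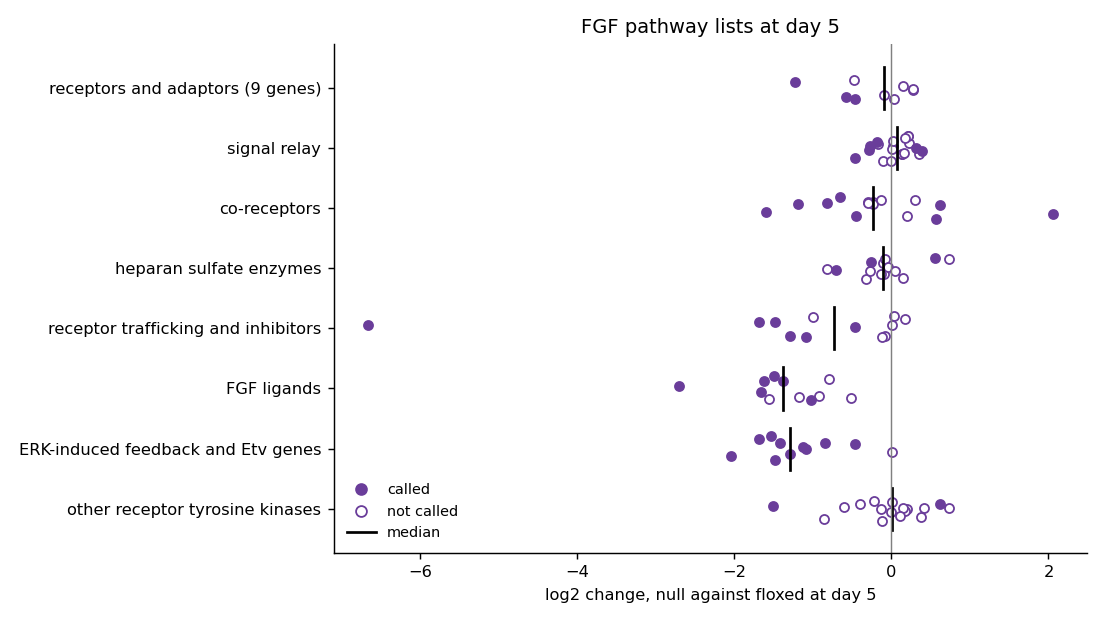
Log2 change at day 5, null minus floxed, of each tested gene in the 9 receptors and adaptors and in 7 lists of the FGF pathway and other receptor kinases; filled points are called, black bars are list medians, and vertical scatter only separates points. The medians of the ligand list (-1.38) and the feedback list (-1.29) lie farther below 0 than that of the 9 genes (-0.10), and the far left point is Grb10.

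At day 3, 6.12% of all genes were called (4.09% higher and 2.03% lower in null). The feedback, trafficking and relay lists had larger shares of calls than that background, and the ligands and co-receptors did so by 1 call each. The feedback and trafficking lists share Spry2 and Spred3. Of the feedback and Etv genes 3 of 11 were lower in null (Spry2, the ERK phosphatase gene Dusp6, and Spred3), of the trafficking and inhibitor genes 3 of 12 (Grb10, Spry2 and Spred3), of the ligands 1 of 11 (Fgf5) and of the co-receptors 1 of 15 (Gpc1). In the signal relay of 20 genes Grb2, on chromosome 11, and Map2k1 were higher and Hras lower, and 0 relay calls were left with a 1.5-fold minimum. Among the other receptor kinases 1 of 17, the PDGF receptor gene Pdgfrb, was higher. Some of these day 3 calls were lost without 1 library: the highest adjusted p was 0.138 for Spred3 and 0.0679 for Dusp6 (without null replicate 1 and null replicate 3), 0.0934 for Fgf5 (without null replicate 3), and 0.087 for Hras and 0.128 for Pdgfrb (without floxed replicate 2). The day 3 calls of Spred3 and Pdgfrb were also lost with edgeR (adjusted p = 0.0521 and 0.0528), which called 0 of the other receptor kinases against 4 by DESeq2, and with the day 3 samples fitted alone (0.0532 and 0.0557). None of 14 heparan sulfate genes was called at day 3 by limma or edgeR, and 1 was by DESeq2; 3 had an unadjusted p under 0.05 by limma. The median log2 change was -0.61 for the feedback list, -0.42 for the ligands, -0.10 for the trafficking list, 0.05 for the co-receptors, -0.04 for the signal relay, -0.12 for the heparan sulfate genes and 0.20 for the other receptor kinases, against 0.00 over all genes.

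Between the days 22.6% of all genes rose and 21.9% fell in null samples, and 22.5% rose and 19.2% fell in floxed samples. Rises among the co-receptors, the heparan sulfate genes and the other receptor kinases made up larger shares than that in each line. The co-receptors rose in 10 of 15 cases in each line, with 0 falls in null and 1 in floxed samples, and medians of 1.19 in null and 0.97 in floxed. Sdc3 rose in each line, with means of 136 at day 5 and 38.2 at day 3 in null and 414 at day 5 and 42.8 at day 3 in floxed samples. The cadherin gene Cdh2 rose likewise, with 2033 at day 5 and 583 at day 3 in null and 4676 at day 5 and 604 at day 3 in floxed samples. Of the heparan sulfate genes 7 rose and 1 fell in null, and 8 rose and 1 fell in floxed samples, with the sulfotransferase gene Hs3st3b1, on chromosome 11, up by 4.02 ± 0.46 in null and 4.88 ± 0.46 in floxed samples. The other receptor kinases rose in 6 and fell in 2 of 17 cases in null, and rose in 10 and fell in 1 in floxed samples; Kdr, the VEGF receptor of endothelium, rose by 5.48 ± 0.46 in null and 4.82 ± 0.46 in floxed samples.

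The remaining lists had shares of calls in both directions together near or below the background in null samples (44.5%), and in floxed samples (41.7%) near it or, for the feedback list, above it. Taken by direction, rises of the feedback, trafficking and ligand genes in floxed samples made up larger shares than the 22.5% of all genes. Falls of the feedback genes in null samples made up a larger share than the 21.9% of all genes. In the signal relay of 20 genes 1 gene rose and 4 fell in null, and 4 rose and 5 fell in floxed samples. Feedback and Etv genes rose in 1 and fell in 4 of 11 cases in null, and rose in 5 and fell in 1 in floxed samples. Trafficking and inhibitor genes rose in 1 and fell in 3 of 12 cases in null, and rose in 5 and fell in none in floxed samples. Of the 11 ligands 3 rose and 2 fell in null, and 5 rose and none fell in floxed samples. Their median log2 change was 0.47 in null and 1.26 in floxed samples. Fgf4, a ligand of embryonic stem cells, fell by 2.55 in null samples. Its change in floxed samples was -1.12 ± 0.50 and was not called (limma adjusted p = 0.0877). Fgf3 rose by 1.43 in null and 2.87 in floxed samples. These counts are not a test of the difference between lines, which is the interaction.

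Over the 12 libraries, Fgfr2, Fgfr3 and Flrt3 followed each other (Pearson r = 0.887 for Fgfr2 with Fgfr3, 0.906 for Fgfr2 with Flrt3, and 0.878 for Fgfr3 with Flrt3, log2 values, 12 libraries), and Fgfr1 and Il17rd had r = 0.815. Fgfrl1 went with the same 3 genes at r = 0.782 with Fgfr3, 0.730 with Fgfr2 and 0.685 with Flrt3. All points share the 4 groups, so these values describe group differences and have no p. Among 10894 genes with a mean of at least 100 normalised reads, those most like Flrt3 were Sema3a (r = 0.996), Hip1 (0.993) and Cdh6 (0.991). Fgfr3 was most like Wdr13 (0.979), Lrig2 (0.975) and Tmem181a (0.974), and Fgfr2 most like Patz1 (0.967), Samd14 (0.966) and Ivns1abp (0.965). Il17rd was most like Nr2c2 (0.945), Btbd11 (0.934) and Slc6a6 (0.931), and the genes nearest to Fgfr1 included Dlgap4 (0.954) and Slc6a6 (0.926), so Slc6a6 stood among the nearest genes of both. The nearest genes were Ppp1r12c (0.979), Tmem161a (0.960) and Zfp414 (0.949) for Frs3, Cplane1 (0.952), Ripor1 (0.951) and Efcab14 (0.944) for Frs2, and Gpr180 (0.941), Thap11 (0.926) and Csrnp2 (0.924) for Fgfrl1. For Fgfr4, whose counts are low, the nearest gene was Zfp788 at 0.745, followed by Neil3 (0.744) and Trmt13 (0.736).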

How the data were processed

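Total RNA libraries (TruSeq stranded kit, 8 PCR cycles, per the labels' protocols) of 12 samples were analysed from 1 table of the series. Its signal values are read counts that the authors divided by 1 size factor per sample, as the deposited values show: 100% were whole multiples of the value of 1 read (tolerance 0.01). The submitters' processing notes list HTSeq 0.6.0, TopHat2 2.0.10, DESeq 1.16.0 and CASAVA 1.8.2 with the build mm10 and no roles, and the strand setting and gene filter are not given in the sources used here. Symbols and positions came from GENCODE M21 (mm10), which held 18199 of the 18269 IDs.

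Differences were tested with limma-trend (limma 3.58.1, R 4.3.3) after log2(value + 1), two-sided. One model held the 12 libraries and a mean for each of 4 groups, leaving 8 residual degrees of freedom to which 5 prior ones were added. A filter asked for a group mean of 10 or more in 1 group or more; 17000 genes passed, all 9 members among them, and 1269 did not. Log2 changes are on the log2(value + 1) scale, which understates changes of low genes. Benjamini-Hochberg adjustment ran over all genes tested, and a gene was called at an adjusted p under 0.05. Recovered reads were tested with edgeR 4.0.16 and DESeq2 1.42.0 as alternatives; edgeR called 4490 genes between genotypes at day 5 and 1007 at day 3. Other alternatives changed scaling, pseudocount, filter, block and libraries. The code was tested on simulated data.

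The members and lists were chosen with earlier results of these data known, and the feedback and ligand lists follow the subject of the series. All 9 genes were named in each comparison, and up to 3 called genes of smallest p per list, of which the text gives a part. Nearest genes were those with the highest Pearson r over 12 libraries, leaving out clone-type names. The rules take 2 further genes that are not reported here.

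Replicate numbers come from the sample titles. Deviations from group means of same-numbered samples correlated across genes at 0.270 to 0.372 between genotypes at day 3, 0.247 to 0.424 at day 5 and 0.123 to 0.282 between the days in null samples, so the numbers were taken to pair these samples.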

Additional observations from a re-analysis of the deposited data

Results flagged for a closer look

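None of the 9 receptor and adaptor genes had a genotype effect that differed between the days by the interaction test of limma. Of the pathway lists, 3 genes did. Grb10, an adaptor of growth factor receptors on chromosome 11, had an interaction of -3.61 on the log2 scale, with 216 normalised reads in null and 22128 in floxed samples at day 5, and 1345 in null and 11087 in floxed samples at day 3. Spry1, an inhibitor of receptor tyrosine kinase signalling, had -1.03 (adjusted p = 0.0345), with 417 in null and 888 in floxed samples at day 5, and 383 in null and 401 in floxed samples at day 3. Etv4, an ETS transcription factor on chromosome 11, had -2.81 (adjusted p = 0.0368), with 67.0 in null and 287 in floxed samples at day 5, and 465 in null and 272 in floxed samples at day 3. The Grb10 call held without any 1 of the 12 libraries. The Spry1 call was lost in 8 of those 12 fits, without replicate 1 or 2 of either line at day 3, replicate 1 or 2 of null at day 5, or replicate 1 or 3 of floxed at day 5 (adjusted p up to 0.0915). The Etv4 call was lost in 10 of 12 (adjusted p up to 0.0989), and held without floxed day 3 replicate 3 or floxed day 5 replicate 2.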

How the results depend on the processing

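Il17rd at day 5 was called in all 12 fits that left out 1 library (adjusted p = 0.00207 to 0.03) and in all 12 other alternatives, and the rises of Fgfr2, Fgfr3 and Flrt3 between days were called throughout. The number of the 9 genes called between genotypes at day 5 was 3 by limma and by DESeq2, and 2 by edgeR. The Fgfr1 call was lost by edgeR and with TMM scaling. The number was 1 with upper-quartile scaling, with median-of-ratios scaling without chromosome 11 and with a 1.5-fold minimum as well. Without 1 library it was 1 to 3. At day 3 it was 0, but 1 with DESeq2 (Fgfr1) and 2 with the replicate block (Fgfr1 and Il17rd). Without 1 library it was 0 to 1. Between the days in null samples it was 3, and 5 with the replicate block. In the floxed line same-numbered samples of the 2 days correlated at 0.0814 to 0.214 and others at up to 0.124, so the number may pair nothing there; the block added Fgfrl1 (adjusted p = 0.00366) in that line. The block changed no other call of the 9 genes.

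Upper-quartile scaling took the day 5 difference of Fgfr1 to an adjusted p of 0.0653 and that of Flrt3 to 0.0557, and scaling without chromosome 11 took them to 0.0554 and 0.0504. The Il17rd change between days in floxed samples turned to -0.00228 with upper-quartile scaling. Leaving out 1 library turned the sign of some differences that were never called, with these log2 ranges. Null minus floxed at day 5, they were -0.28 to 0.077 for Fgfr2, -0.36 to 0.51 for Fgfr4 and -0.086 to 0.15 for Fgfrl1. At day 3 they were -0.065 to 0.19 for Fgfr2, -0.43 to 0.18 for Fgfr3, -0.36 to 0.085 for Fgfr4, -0.00095 to 0.35 for Fgfrl1 and -0.33 to 0.096 for Flrt3. Day 5 minus day 3, they were -0.021 to 0.28 for Fgfr1 in null samples, and -0.091 to 0.24 for Fgfr1, -0.50 to 0.38 for Fgfr4 and -0.18 to 0.36 for Il17rd in floxed samples. In the interaction they were -0.12 to 0.21 for Fgfr1, -0.24 to 0.64 for Fgfr4, -0.31 to 0.039 for Fgfrl1, -0.044 to 0.25 for Frs2 and -0.19 to 0.23 for Frs3.

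Over all genes, 1041 were called at day 3, against 1696 with DESeq2, 1866 with the block, 647 with the groups of the contrast alone, 464 with a 1.5-fold minimum and 426 to 1133 without 1 library. The 1.5-fold minimum left 2165 of 4509 at day 5, 4514 of 7571 between days in null and 4417 of 7094 in floxed samples. The interaction called 81, against 443 with the block, 511 with DESeq2 and 3 to 115 without 1 library. Fgfr4 was not tested with a group mean of 50, and the contrast groups alone give no interaction. Fgfr4 rests on 17 to 55 reads a library, and its libraries varied by more than counting gives. The causes of these moves were not tested.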
